A study of Mus musculus with 5 samples.

Results

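Slc8a1 encodes a sodium-calcium exchanger of the plasma membrane, and its transcription was read here across a stretch of chromosome 17 in 2 mouse embryo fibroblast lines. The stretch was defined by the probe positions of the array files, from 79950000 to 80219999 (270 kb). It held 1714 of the 387986 chromosome 17 probes and 2 of the 1091 annotated protein-coding genes of the chromosome, Slc8a1 and the small Gm11096 within it. The stretch was chosen from measured values, the ratio of cDNA to input, for peaks that look like exons and for intron signal between them. That its windows stood higher in one of the lines, MEFB, than in the other, MEFF, was also known when it was chosen. The exon levels, the intron levels and the difference between the lines are therefore given as a description, without support from a test.

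The exchanger moves calcium out of the cell in exchange for sodium and can run in reverse. It is best known from heart muscle, where it clears calcium after each beat, and it is also present in kidney, brain and smooth muscle. A large coding exon, which is followed by a very long intron, encodes much of the membrane part of the protein. The intracellular loop carries an alternatively spliced region. There, exons A and B exclude each other and small cassette exons called C to F are added in tissue-specific combinations. Exon A is typical of excitable cells such as cardiomyocytes and neurons, and exon B of many other tissues.

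The groups were MEFB polyA RNA (n = 1, genotype +/Thp), MEFF total RNA (n = 2, genotype Thp/+) and MEFF polyA RNA (n = 2, genotype Thp/+). Both lines are embryo fibroblasts of strain FVBN, taken at 12.5 dpc and spontaneously immortalised, and all arrays therefore share a heterozygous Thp deletion on one or the other parental copy. The labels put that deletion between the genes T and Sod2, far from the stretch. Each parental copy is carried by 1 line, so line and parental copy of the deletion cannot be told apart. Every array set double-stranded cDNA, in Cy3, against sheared genomic DNA of the same genotype, in Cy5 and called input. Levels are log2(cDNA/input), centred on the median of each array, so 0 is the level of the typical probe. The labels do not say that the replicates came from separate cultures, so the spread between them may be technical.

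The median cDNA intensity of the arrays ranged from 568.78 to 2560.56. The 99th percentile of cDNA intensity stood 20.7 times above the median on the MEFB array, 5.42 and 5.33 times on the MEFF total RNA arrays, and 9.17 and 22.4 times on the MEFF polyA arrays. The MEFB array was thus close to the second MEFF polyA array in this range. The slide series of the total RNA arrays was not that of the polyA arrays, so the kind of RNA and the slide series cannot be told apart. No placed probe lay over the fibroblast markers Thbs2 and Tnxb, the muscle marker Myom1, or the epithelial, immune and erythroid markers chosen, so none of these could be read. The label of the lines was therefore not checked against such markers. The neuronal gene Dlgap1 had an exon level of -0.20 in MEFB, near the level of the typical probe.

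No source used here gives the genome build of the file positions. The input signal, which follows the base composition of each probe, was used to place probes on NCBIM37 (the build also called mm9), with no cDNA value used. All 1714 probes of the stretch were placed. They cover the Slc8a1 gene of the GENCODE M1 annotation (ENSMUSG00000054640.7), at chr17:81785359-82048947 on the minus strand, from end to end. Within the stretch they fell into 4 pieces, each with its own shift from the file positions. Where a piece ends, a probe may belong to either side, and its position is then off by the change in shift, which was 35, 842 and 225 bases at the 3 changes. The last of these lies inside exon 1, between adjacent probes at file positions 80215212 and 80215405, whose placed order is reversed. Within a piece, close shifts were merged and the probe length was assumed, so the bases given under probes are approximate. The 14 exon intervals of the gene are numbered here from the 5′ end of the annotation, and 22 probes lay over 7 of them. The gene Gm11096 lies on the opposite strand at chr17:81840588-81841263, across exons 6 and 7. The cDNA keeps no strand, so transcripts of the 2 strands cannot be told apart there.

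The spliced exons below are shown because the results turn on the probes over them. Exon 2 (chr17:81844827-81844933, exon A) and exon 4 (chr17:81844209-81844312, exon B) are the mutually exclusive pair. Exon 8 (chr17:81837085-81837153) is cassette exon F. They are read on the minus strand of NCBIM37, with the bases under placed probes in capitals.
Exon 2: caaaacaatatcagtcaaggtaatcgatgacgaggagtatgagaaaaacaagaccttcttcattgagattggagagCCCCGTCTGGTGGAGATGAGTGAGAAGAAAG
Exon 4: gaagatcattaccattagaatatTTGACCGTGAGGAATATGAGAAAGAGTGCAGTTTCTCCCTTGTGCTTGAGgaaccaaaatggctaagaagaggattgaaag
Exon 8: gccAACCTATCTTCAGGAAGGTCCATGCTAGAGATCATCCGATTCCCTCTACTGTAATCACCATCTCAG
Over their whole length, exons 2 and 4 were identical in 67 of 111 columns of a global alignment (60.4%). The bases under their probes, in capitals, were not aligned, and binding of either exon to the probe of the other was not tested.

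Over the whole stretch, the mean level was 0.61 in MEFB, against -0.16 and -0.16 in MEFF total RNA and -0.09 and -0.26 in MEFF polyA RNA. MEFB stood apart, and the MEFF groups overlapped. In RNA of whole cultures, fewer cells that transcribe a gene and less RNA per cell cannot be told apart. In the 100 kb below the stretch, after a gap of 10 kb, the level was -0.19 in MEFB, -0.32 and -0.25 in MEFF total RNA and -0.12 and -0.36 in MEFF polyA RNA. In the 100 kb above it, MEFB had -0.06, MEFF total RNA -0.20 and -0.16, and MEFF polyA RNA -0.05 and -0.22. As means over 100 kb, MEFB thus lay within the range of the MEFF arrays on both sides of the stretch. Close above the stretch it did not. The 5 kb windows starting at 80220000, 80225000 and 80230000 had 0.13, 0.08 and 0.28 in MEFB, above every MEFF array. The start of the gene in RefSeq lies 88.7 kb upstream of exon 1, so by RefSeq the upper flank is largely inside the gene. With the flanks subtracted, the stretch stood at 0.73 in MEFB, at 0.09 and 0.05 in MEFF total RNA and at -0.01 and 0.03 in MEFF polyA RNA. The working description of the stretch named continuous intron signal on all arrays, and the data go against it: only the MEFB array had a level over the stretch that was clearly above its flanks.

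**Figure D1:**
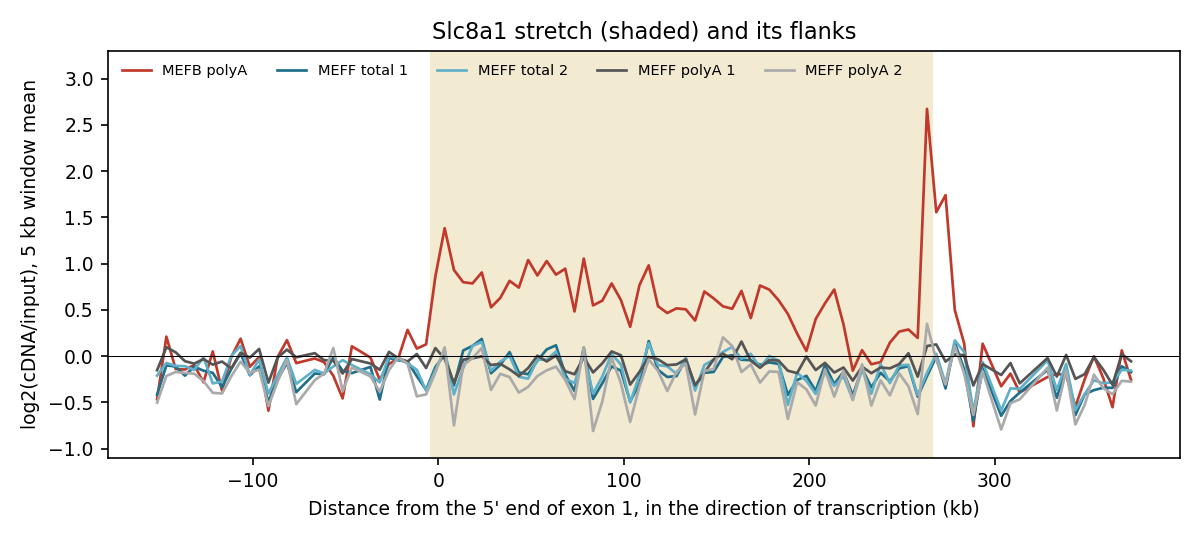
Means of log2(cDNA/input) in 5 kb windows (vertical axis) against distance in kb from the 5′ end of exon 1 (horizontal axis, positive in the direction of transcription), one line for each of the 5 arrays, with the stretch shaded. The MEFB line lies above the MEFF lines in all 54 windows of the stretch and peaks at 2.67 at its 3′ border.

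By windows of 5 kb, MEFB ranged from -0.16 to 2.67, with a median of 0.60 over 54 windows. It was above 0 in 51 of them. The single MEFF total arrays were above 0 in 10 and 12 windows and the MEFF polyA arrays in 9 and 6. MEFB was above every MEFF array in 54 of 54 windows, where 30.9% of all 15383 windows on the chromosome had that order. That these windows were higher in MEFB was known when they were chosen, so nothing is read from the count.

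The values at the borders show what the choice of the stretch left out. At its low border, which is the 3′ end of the gene, the window starting at 79950000 had 2.67 in MEFB. The windows just outside, starting at 79945000 and 79940000, still had 1.56 and 1.74. At the high border, the 5′ side, the last window inside had 0.86 and the next one outside 0.13.

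Exon 1 (chr17:82047149-82048947, 1799 bases), the large coding exon, was read by 14 probes. Its mean level was 3.84 in MEFB, -0.01 and 0.08 in MEFF total RNA, and 0.52 and 0.78 in MEFF polyA RNA. The 14 probes ranged from 2.55 to 4.67 in MEFB. They ranged from -0.68 to 0.40 and from -0.77 to 1.07 on the MEFF total arrays. On the MEFF polyA arrays the ranges were -0.14 to 1.26 and -0.01 to 1.62. No exon 1 probe of any MEFF array reached the lowest one of MEFB. The input signal did not differ in the same way. Relative to each array's median it was 0.52 in MEFB over exon 1, 0.63 and 0.55 in MEFF total RNA and 0.40 and 0.58 in MEFF polyA RNA.

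Within the alternatively spliced region, the probe of exon B differed strongly between the lines and that of exon A little. The probe wholly within exon 4, exon B, had 5.85 in MEFB, 1.00 and 0.99 in MEFF total RNA and 1.82 and 2.61 in MEFF polyA RNA. The probe over exon 2, exon A, had 0.39 in MEFB, -0.06 and -0.51 in MEFF total RNA and -0.26 and -0.30 in MEFF polyA RNA. In MEFB this was below the median probe of intron 1, which stood at 0.67. Probes differ in response, so each was compared with itself between lines. MEFB minus the MEFF polyA mean was 3.64 for the exon B probe and 0.67 for the exon A probe. Over the other 20 exon probes of the gene it lay between 2.16 and 3.90, and over the introns of the gene it was 0.76. The exon A probe thus differed between the lines by about as much as the introns. Only 31 of the 50 bases of the exon A probe lay in the exon, each exon rests on 1 probe, and the pair was singled out after their values were seen, so no test is given.

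Exon 8, cassette exon F, had 2.78 in MEFB, -0.42 and -0.75 in MEFF total RNA and -0.23 and -0.15 in MEFF polyA RNA. Its MEFB value was above the 99th percentile of intron 1 probes, and its MEFF values were not. Exons 5, 6 and 7, which are the cassettes C, D and E of 21, 18 and 15 bases, had no probe. The constant exons that follow were read by single probes or a few. Exon 9 had 3.45 in MEFB, -0.21 and 0.33 in MEFF total RNA and 0.41 and 2.04 in MEFF polyA RNA. Exon 11 had 3.56 in MEFB, -0.90 and -0.78 in MEFF total RNA and 1.27 and 0.65 in MEFF polyA RNA. Exon 13, with 3 probes, had 3.69 in MEFB, -0.06 and 0.10 in MEFF total RNA and 0.29 and 1.14 in MEFF polyA RNA. From exon 1 to exon 13, every exon with a probe except exon 2 was therefore between 2.78 and 5.85 in MEFB.

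**Figure D2:**
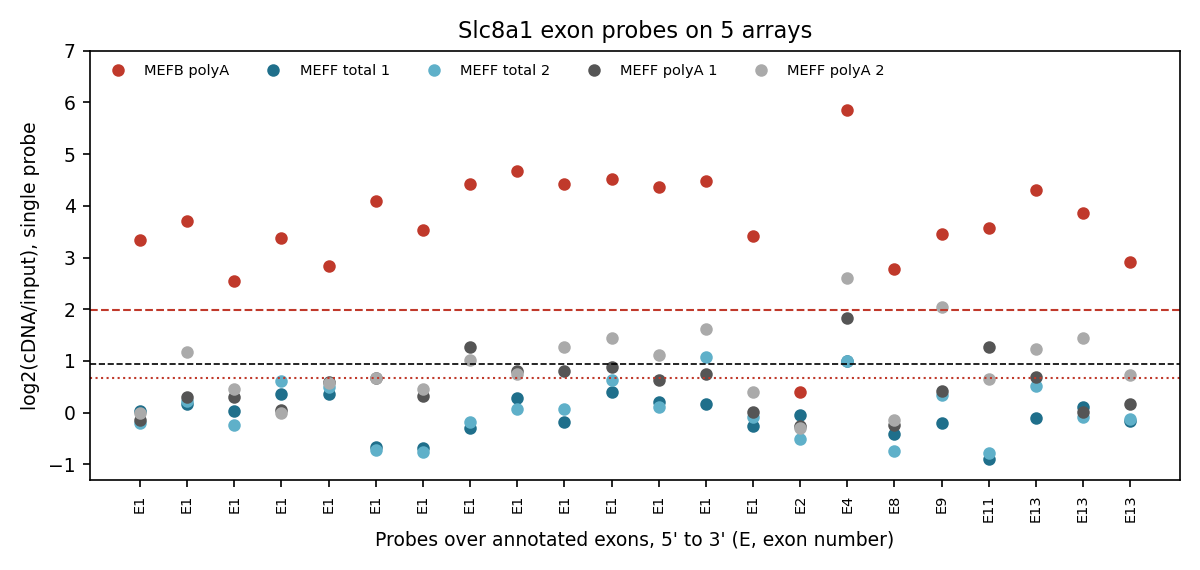
Level of each of the 22 exon probes (log2(cDNA/input), vertical axis) in 5′ to 3′ order (horizontal axis, E with the exon number) on the 5 arrays. The dotted line is the median and the red dashed line the 99th percentile of MEFB intron 1 probes, and the black dashed line is the highest 99th percentile of a MEFF array (0.94). All MEFB points but the exon 2 probe lie above the red dashed line.

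Each exon probe was also set against the 1269 probes of intron 1 on the same array. In MEFB, 21 of 22 exon probes exceeded the 99th percentile of intron 1, which was 1.99. In MEFF total RNA, 1 and 2 of 22 did, at percentiles of 0.72 and 0.82. In MEFF polyA RNA, 8 and 10 of 22 did, at 0.68 and 0.94. The exon probes of the MEFF polyA arrays thus stood in part above their introns, at levels far under those of MEFB. Probes of one gene share their RNA and are not replicates.

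The mean over the 22 exon probes minus the mean over the intron probes was 3.10 in MEFB, 0.12 and 0.19 in MEFF total RNA and 0.60 and 1.14 in MEFF polyA RNA. Across 301 protein-coding genes with at least 3 exon and 20 intron probes placed, the median of this difference was 1.31 in MEFB, 0.40 and 0.45 in MEFF total RNA and 0.95 and 1.46 in MEFF polyA RNA. In MEFB the difference of Slc8a1 ranked 19 of 301. It ranked 210 and 199 in MEFF total RNA and 182 and 171 in MEFF polyA RNA. Slc8a1 was above the median gene in MEFB and below it on each MEFF array. Exon peaks and intron signal were among the grounds for choosing the stretch, so these ranks are a description. The contrast was smaller in MEFB after loess within arrays (1.71) and after quantile normalization (2.42), and larger in MEFF total RNA after normexp (0.73).

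Intron 1 (chr17:81844934-82047148, 202215 bases) makes up most of the gene. Its mean was 0.65 in MEFB, -0.14 and -0.13 in MEFF total RNA and -0.09 and -0.26 in MEFF polyA RNA. Among its 1269 probes, 85.4% were above 0 in MEFB, 42.0% and 45.3% in MEFF total RNA, and 44.4% and 37.0% in MEFF polyA RNA. The intron signal of MEFB was spread over its probes rather than held by a few: the 25th percentile was 0.28, the median 0.67 and the 75th percentile 1.06. With the flanks subtracted, intron 1 stood at 0.77 in MEFB, 0.11 and 0.07 in MEFF total RNA and -0.01 and 0.03 in MEFF polyA RNA.

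Along intron 1, the level in MEFB was lower towards the 3′ end. In bins of 25 kb from the 5′ end it was 0.84, 0.78, 0.86, 0.64, 0.61, 0.55, 0.61 and 0.34, with 144 to 177 probes a bin. The MEFF arrays were also lower in the last of these bins than in the first. In the first bin, MEFF total RNA had -0.02 and -0.06 and MEFF polyA RNA -0.10 and -0.20. In the last, MEFF total RNA had -0.28 and -0.30 and MEFF polyA RNA -0.12 and -0.41. The difference of MEFB from the MEFF polyA mean was still larger in the first bin, at 0.99, than in the last, at 0.61. All bins lie on 1 MEFB array, so the course has no replicate.

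**Figure D3:**
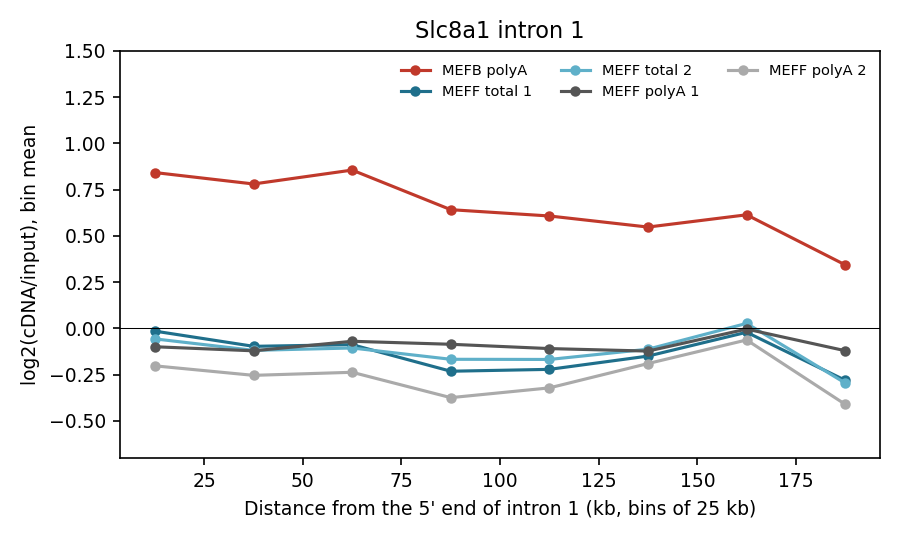
Mean log2(cDNA/input) in bins of 25 kb along intron 1 (vertical axis) against distance from its 5′ end in kb (horizontal axis), one line an array. A last bin of 6 probes is not drawn. MEFB lies between 0.34 and 0.86 and all MEFF arrays lie below 0.03.

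Introns 9 to 12 were lower in MEFB than each of the introns before them that had a probe, of which intron 5 (4 probes) was the lowest at 0.34. Intron 7 (24 probes) had 0.84 in MEFB and intron 8 (36 probes) 0.52. Intron 9 (31 probes) had -0.29 in MEFB, against -0.43 and -0.51 in MEFF total RNA and -0.27 and -0.54 in MEFF polyA RNA. There MEFB lay within the range of the MEFF arrays. Intron 10, of 19839 bases and 123 probes, had 0.00 in MEFB, -0.24 and -0.23 in MEFF total RNA and -0.13 and -0.30 in MEFF polyA RNA. Intron 12, with 121 probes, had 0.18 in MEFB, -0.24 and -0.24 in MEFF total RNA and -0.13 and -0.42 in MEFF polyA RNA. With the flanks subtracted, introns 10 and 12 kept 0.12 and 0.30 in MEFB.

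The last annotated interval between exons, intron 13 (2643 bases, 16 probes), was read like an exon. It had 3.83 in MEFB, 0.02 and 0.09 in MEFF total RNA and 0.47 and 0.91 in MEFF polyA RNA. On each array this was close to the level of exon 1. Beyond the annotated 3′ end, the signal of MEFB went on at a lower level. Over the next 12 kb (80 probes) it averaged 1.59 in MEFB, -0.22 and -0.17 in MEFF total RNA and -0.03 and -0.19 in MEFF polyA RNA. In steps of 2 kb from the annotated end it was 1.22, 1.36, 1.72, 1.66, 1.98 and 1.55 in MEFB, then 0.51 and 0.07. Most of these probes lie below the low border of the stretch.

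At the 5′ side the exon-level signal of MEFB ended within the space between adjacent probes. Their placed positions rest on the piece that begins inside exon 1, 178 probes long. The outermost exon 1 probe, placed at chr17:82048889-82048938, had 3.35 in MEFB. The next probe, placed 48 bases upstream of the exon, had 0.35. One probe further out, 20659 bases upstream of exon 1, had 3.13 in MEFB, 0.39 and 0.19 in MEFF total RNA and 0.35 and 0.51 in MEFF polyA RNA. It was the only one of 477 probes in the 100 kb upstream that exceeded the 99th percentile of MEFB intron 1, and it was looked for after the MEFB values were seen. Between exon 1 and this probe, MEFB averaged 0.16, MEFF total RNA -0.16 and -0.17, and MEFF polyA RNA -0.05 and -0.28 over 107 probes. A lower level in MEFB, above that of every MEFF array, thus went on upstream of exon 1, and these values do not set where transcription began. Beyond the probe at 20659 bases, up to 100 kb, MEFB averaged -0.12, MEFF total RNA -0.21 and -0.16, and MEFF polyA RNA -0.05 and -0.23.

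RefSeq sets the start of Slc8a1 further upstream than the annotation used here. Its promoter sequence (table build GRCm38.p6) was found once in NCBIM37, 88.7 kb upstream of exon 1. The 250 bases before that start, chr17:82137728-82137977 on the minus strand, are shown because placed probes lie over 150 of them, in capitals.
Slc8a1 promoter: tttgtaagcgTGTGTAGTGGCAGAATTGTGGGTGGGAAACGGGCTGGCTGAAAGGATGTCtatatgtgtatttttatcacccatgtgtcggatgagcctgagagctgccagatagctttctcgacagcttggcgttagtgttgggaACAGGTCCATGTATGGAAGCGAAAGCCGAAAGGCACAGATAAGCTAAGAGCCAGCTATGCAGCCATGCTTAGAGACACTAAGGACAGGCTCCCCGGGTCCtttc
The 4 probes that touch the 300 bases around the start averaged -0.92 in MEFB, -0.60 and -0.50 in MEFF total RNA and -0.31 and -0.57 in MEFF polyA RNA. Within 10 kb on each side, 102 probes averaged -0.12 in MEFB, -0.24 and -0.17 in MEFF total RNA and -0.06 and -0.24 in MEFF polyA RNA. No array thus had a level above the typical probe there. Both strands of the 250 bases were searched for 3 motifs. The TATA box, TATAAA, was not found there and is in 12.4% of the 32851 promoters of the same table. The CCAAT box was not found and is in 33.9%, and the GC box, GGGCGG, was not found and is in 32.7%. That says only that these letters are not in this window.

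The comparison of total with polyA RNA within MEFF asked which parts of the gene differ between all RNA of the line and the part with a polyA tail. It shares the MEFF polyA arrays with the comparison of MEFB. The exons had -0.04 and 0.03 in MEFF total RNA against 0.51 and 0.87 in MEFF polyA RNA, and the 2 groups did not overlap. The difference was -0.69 (SE 0.17) and did not pass limma's test over 602 exon and intron features (adjusted p = 0.21), where 0% of the features passed. At an unadjusted p of 0.05, 23.4% of the features passed. The exons passed after quantile normalization (-0.62, adjusted p = 0.0035, with 31.6% of all features called) and after normexp (-0.91, adjusted p = 0.019, with 30.6% called). They also passed without MEFF polyA replicate 1 (-0.88, with 67.6% called) and without replicate 2 (-0.51, with 46.7% called). Of the 301 genes, 274 had lower exons in total RNA, with a median difference of -0.90, so Slc8a1 was near the middle (rank 178 from the lowest). The total RNA arrays had the narrower range of cDNA intensity given above, and its part in these differences was not tested.

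The introns of Slc8a1 had -0.16 and -0.16 in MEFF total RNA, against -0.10 and -0.27 in MEFF polyA RNA. The groups overlapped, and the difference was 0.03 (SE 0.12, adjusted p = 0.98, limma). Its sign turned after normexp (-0.01) and without MEFF polyA replicate 2 (-0.06). By 5 kb windows, limma called 0 of 54, with 0% of all windows called, and the smallest adjusted p was 0.57. An unadjusted p of 0.05 was met by 1 of 54 windows and by 7.73% of all windows. After normexp, 1 of 54 was called, with 3.37% of all windows, and after quantile normalization 1 of 54, with 6.04%. Without MEFF polyA replicate 1, 16 of 54 windows passed, 14 of them higher in total RNA, with 29.2% of all windows called. Without MEFF polyA replicate 2, 9 of 54 passed, 0 of them higher in total RNA, with 20.8% of all windows called. Without MEFF polyA replicate 1, the mean difference of the windows in the stretch was 0.10, beside a median of 0.03 over all windows. Without MEFF polyA replicate 2 it was -0.06, beside a median of -0.05 over all windows. The 2 fits thus went opposite ways, in the stretch and over all windows. Each fit leaves 1 MEFF polyA array, so nothing is read from its counts or their direction.

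In polyA RNA, MEFB was then set beside MEFF, the line with the reciprocal deletion. The exons of Slc8a1 had 3.67 in MEFB, against 0.51 and 0.87 in MEFF polyA RNA. The introns had 0.57 in MEFB, against -0.10 and -0.27. The differences were 2.99 (SE 0.21) and 0.76 (SE 0.14). Each was the second highest of 301 genes, whose median differences were -0.02 for exons and -0.04 for introns, and whose 95th percentiles were 1.12 and 0.43. By rank within an array, the exons of Slc8a1 stood at 28 of 301 in MEFB and at 191 and 195 in MEFF polyA RNA. The introns stood at 91 in MEFB and at 225 and 264 in MEFF polyA RNA. Since this contrast was known when the stretch was chosen, these ranks are a description.

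Neither feature passed limma's test with intensities as deposited, nor did any of the 602 features (0%). The exons passed with medians of probes (3.02), after quantile normalization (2.19) and after normexp (3.28), and the introns after quantile normalization (0.60) and normexp (1.42). Of all features, 0.664% were called with medians, 17.4% after quantile normalization and 4.32% after normexp. Without MEFF polyA replicate 1 or 2, both passed, at 2.80 and 3.17 for exons and 0.85 and 0.67 for introns, but so did 65.8% and 70.9% of all features. By windows, 0 of 54 passed, with 0.0065% of all windows called. At an unadjusted p of 0.05, 48 of 54 windows passed, with 15.7% of all windows. After normexp, 43 of 54 windows passed, with 3.17% of all windows. After loess 41 passed (2.91% of all), after quantile normalization 44 (6.81%), with a trended prior 40 (2.63%) and with the cDNA channel alone 3 (0.117%). With 2 kb windows 2 passed (0.0111% of all), and with 10 kb windows 1 (0.0957%). Without MEFF polyA replicate 1 or 2, 52 and 49 passed, with 45.4% and 44.8% of all windows. The window mean of the difference was 0.79 as deposited, 1.44 after normexp, 0.62 after quantile normalization and 0.66 with the cDNA channel alone. The single MEFB array is assumed in these fits to vary like the MEFF arrays, and none of these counts supports a contrast that was known when the stretch was chosen.

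The input channel was compared in the same windows, since a difference in input would enter the ratio with the opposite sign. Over the stretch the centred input was -0.07 in MEFB, 0.13 and 0.14 in MEFF total RNA and 0.11 and 0.12 in MEFF polyA RNA. The window mean of MEFB minus MEFF was -0.19, with a median of -0.08 over all windows. By limma, 0 of 54 windows passed (0% of all). Without MEFF polyA replicate 1 or 2, 37 and 35 passed, with 53% and 51.4% of all windows. The flanks also had lower input in MEFB. Below the stretch it was -0.07 in MEFB, 0.21 and 0.19 in MEFF total RNA and 0.05 and 0.17 in MEFF polyA RNA. With the cDNA channel alone, the window mean of MEFB minus MEFF polyA RNA was 0.66, against 0.79 for the ratio.

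**Figure D4:**
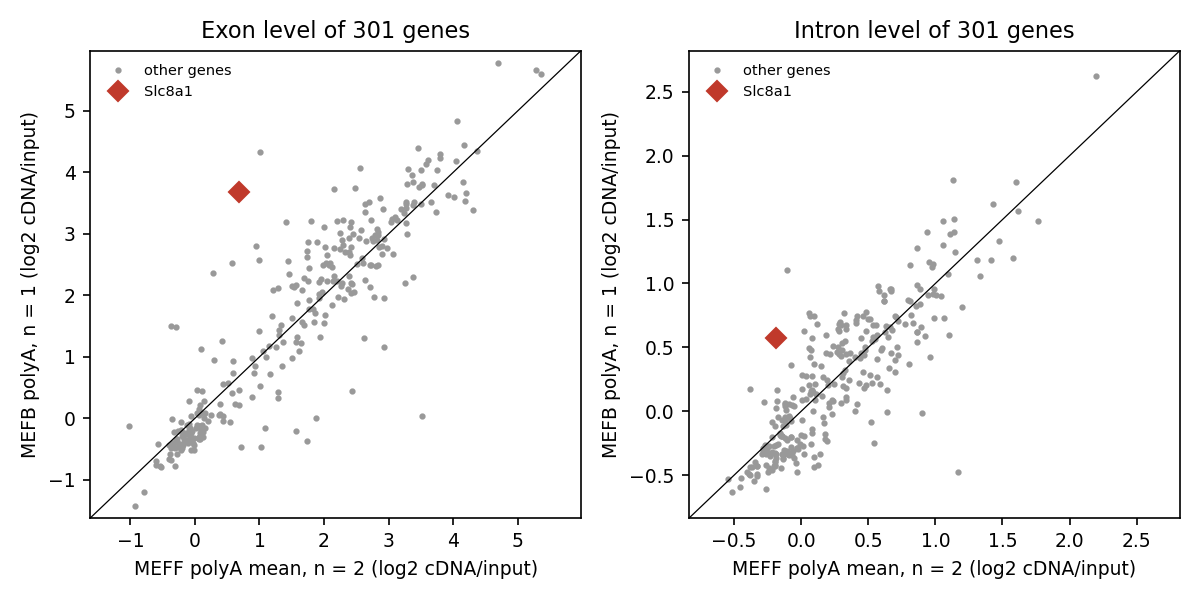
Exon level (left) and intron level (right) of 301 genes in MEFB polyA RNA (vertical axis, n = 1) against the mean of MEFF polyA RNA (horizontal axis, n = 2), both as log2(cDNA/input), with a line of equal values. Slc8a1, the red diamond, lies at 3.67 against 0.69 for exons and at 0.57 against -0.19 for introns.

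The nearest protein-coding genes beyond the 3′ end were Thumpd2, which encodes a THUMP domain protein, and Tmem178, a membrane protein gene. Thumpd2 exons had 2.09 in MEFB, 0.36 and 0.34 in MEFF total RNA and 0.92 and 1.51 in MEFF polyA RNA. Its introns had 0.37 in MEFB, 0.00 and -0.01 in MEFF total RNA and 0.05 and 0.14 in MEFF polyA RNA. Tmem178 exons had -0.12 in MEFB, -1.25 and -1.07 in MEFF total RNA and -0.62 and -1.43 in MEFF polyA RNA. Against the MEFF polyA mean, exons differed in MEFB by 0.87 (SE 0.30) for Thumpd2 and 0.91 (SE 0.40) for Tmem178, and neither passed (adjusted p = 0.51 and 0.60, limma). The nearest protein-coding genes upstream, Pkdcc and Rpl21-ps7, had no placed exon or intron probe, so they could not be read.

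Of 7 other genes of calcium handling on the chromosome, 4 could be tested. Calm2 and Rhot2 had too few probes, and Camkmt was not found under that name. None of the 8 exon and intron features of the 4 genes passed in either comparison by limma. Cacna1h, a T-type calcium channel, had exons at -0.12 in MEFB, 0.01 and 0.05 in MEFF total RNA and -0.05 and 0.19 in MEFF polyA RNA. Itpr3, an inositol trisphosphate receptor that releases calcium from the endoplasmic reticulum, had 3.36 in MEFB, 2.00 and 2.08 in MEFF total RNA and 2.94 and 4.54 in MEFF polyA RNA. Pkd1, which encodes polycystin-1, had 3.47 in MEFB, 1.66 and 1.71 in MEFF total RNA and 2.71 and 4.04 in MEFF polyA RNA. For Cacna1h, Itpr3 and Pkd1, the exons of MEFB lay within or close to the range of MEFF polyA RNA. Prkce, protein kinase C epsilon, had 2.56 in MEFB, 0.35 and 0.34 in MEFF total RNA and 1.17 and 1.71 in MEFF polyA RNA. The median exon difference of the 4 genes was -0.05 for MEFB minus MEFF polyA RNA, beside -0.02 over 301 genes. For MEFF total minus polyA RNA it was -1.39, beside -0.90 over 301 genes.

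The genes whose intron levels were most like those of Slc8a1 over the 5 arrays, by Euclidean distance among genes with at least 100 intron probes, were Arhgap28 (0.37), Ptprm (0.41) and Fam82a1 (0.49). Arhgap28, which encodes a GTPase activating protein, had introns at 0.36 in MEFB, 0.02 and -0.02 in MEFF total RNA and -0.08 and -0.07 in MEFF polyA RNA. Ptprm, a receptor tyrosine phosphatase gene, had introns at 0.17 in MEFB, -0.15 and -0.17 in MEFF total RNA and -0.13 and -0.22 in MEFF polyA RNA. Arhgap28 exons had 3.20 in MEFB, 0.93 and 0.79 in MEFF total RNA and 1.40 and 2.21 in MEFF polyA RNA. Ptprm exons had 2.81 in MEFB, 0.27 and 0.16 in MEFF total RNA and 0.74 and 1.15 in MEFF polyA RNA. Fam82a1 introns had 0.08 in MEFB, -0.21 and -0.15 in MEFF total RNA and -0.11 and -0.25 in MEFF polyA RNA. Its exons had 2.57 in MEFB, 0.41 and 0.32 in MEFF total RNA and 0.74 and 1.25 in MEFF polyA RNA. None of these features passed limma's test in either comparison. MEFB was above every MEFF array in the exons of 23.6% and in the introns of 28.9% of the 301 genes.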

How the data were processed

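Per the file headers, the authors deposited the raw intensity of each probe and channel from NimbleScan 2.2.34. The values show no background subtraction or normalization. Per the labels, input DNA was T7 amplified and the array maker labelled and hybridised the samples. Log2(cDNA/input) was computed for each probe, centred on the array median and averaged over 5 kb windows with at least 8 probes, or over exons (probes with at least 25 bases in an exon) and introns. A probe was taken as 50 bases. Windows and features were tested over the whole chromosome with limma 3.58.1 (lmFit, eBayes, 3 group means, 2 residual degrees of freedom, Benjamini-Hochberg adjustment, threshold 0.05). Blocks of 25 kb were placed on NCBIM37 by the input channel. Of 3263 blocks, 1063 were accepted, and 54.3% of all probes were set. The procedures were tested on simulated data. For the placing, the simulated input came from the same model of base composition, so that test cannot show that the model is right. The anchors of the placing were narrowed to 100 kb after a first try placed few of them. Exons are those of GENCODE M1, and promoters those of RefSeq. Named genes were Slc8a1, the 2 nearest protein-coding genes on each side, a list of calcium genes, marker genes and the 3 genes with the most similar introns. One marker gene is not reported here. The members, lists and tests were chosen with earlier results of these data known. Alternatives covered the summary of probes, window size, normalization, background correction, channel, dim probes, prior, samples fitted and each left-out replicate. The number of arrays limits the precision.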

Additional observations from a re-analysis of the deposited data

How the results depend on the processing

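With 5 arrays, the fits have 2 residual degrees of freedom. Each MEFB value stands on 1 array and each of exons 2, 4, 8, 9 and 11 on 1 probe. Leaving out a MEFF polyA array leaves the spread to the total RNA pair, which agrees closely, so those fits call more. No paired analysis was possible because the labels give no replicate numbers and the replicates were numbered in order of listing. For MEFB minus MEFF polyA RNA, windows called of those in the stretch, with the share over all windows in parentheses, were 2 with 2 kb windows (0.0111%), 1 with 10 kb windows (0.0957%), 41 after loess (2.91%), 44 after quantile normalization (6.81%), 43 after normexp (3.17%), 3 with the cDNA channel alone (0.117%) and 40 with a trended prior (2.63%). With a replicate left out they were between 0 and 52 (up to 45.4%). Its mean difference was 0.621 after quantile normalization, 1.44 after normexp and 0.656 with the cDNA channel. For MEFF total minus polyA RNA, 1 window was called after quantile normalization (6.04%), 1 after normexp (3.37%), and between 0 and 16 with a replicate left out (up to 29.2%). For the input, the mean difference was -0.158 with medians, -0.0957 after quantile normalization and -0.264 after normexp, and between 0 and 37 windows were called with a replicate left out (up to 53%). Exon minus intron was 1.71 in MEFB after loess, 2.42 after quantile normalization, 3.49 after normexp and 3.68 in the cDNA channel. In MEFF total RNA it was 0.0843 with medians, 0.406 after loess, 0.73 after normexp, 0.584 in the cDNA channel and 0.269 without dim probes. In MEFF polyA RNA it was 1.62 after normexp and 1.26 in the cDNA channel. The exon difference of MEFB minus MEFF polyA RNA was 3.02 with medians, 2.19 after quantile normalization, 3.28 after normexp and between 2.8 and 3.17 with a replicate left out. Its intron difference was 0.6 after quantile normalization, 1.42 after normexp and between 0.673 and 0.846 with a replicate left out. Features called were 4 with medians, 105 after quantile normalization, 26 after normexp and between 0 and 427 with a replicate left out. For MEFF total minus polyA RNA, the exon difference was -0.619 after quantile normalization, -0.907 after normexp and between -0.875 and -0.51 with a replicate left out, and the intron difference turned to -0.0149 after normexp and lay between -0.0607, without MEFF polyA replicate 2, and 0.112. Features called were 190, 184 and between 0 and 407 under the same settings. The causes of these shifts between scalings were not tested. Of 142 values under alternatives, 86 kept their direction and side of the threshold or moved by less than the spread.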
